A study of Rattus norvegicus with 9 samples.

Results

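Kidney cells hold their oxidants in check with a set of glutathione, peroxidase and thioredoxin enzymes, and 58 of the 19367 genes in the deposited table were taken to represent it. They were chosen by symbol and comprise the glutathione transferases (Gst and Mgst symbols), glutathione peroxidases (Gpx), peroxiredoxins (Prdx), thioredoxin reductases (Txnrd) and superoxide dismutases (Sod), together with Txn1, Txn2, Txnip, Srxn1, Cat, Nqo1, Hmox1, Gclc, Gclm, Gss, Gsr, Ggt1, Nfe2l2 and Keap1. Of the 58 genes, 53 reached 1 FPKM in at least 3 of the 9 libraries and were tested among 13127 genes. FPKM counts fragments per kilobase of transcript, scaled to the mapped reads of the library, so levels can be set side by side between genes.

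The libraries came from whole kidney tissue of 3 groups with 3 libraries each. The first group was the spontaneously hypertensive rat (SHR) given dapagliflozin at 10 mg/kg per day by mouth for 8 weeks, called treated SHR here. The second was SHR without the drug, and the third was the Wistar-Kyoto rat (WKY), the normotensive strain to which SHR is usually compared. Rats were 3 months old at the start, and dapagliflozin blocks SGLT2, the glucose transporter of the early proximal tubule. One label field gives saline and the treatment protocol gives distilled water for the animals without drug. Because Wistar-Kyoto is also entered as the strain of the SHR samples, grouping followed the sample titles. Each group had 3 rats according to the protocol, but no label says which rat a library came from, so the p-values reflect only how far libraries of a group spread.

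Glutathione is built in the cytosol by glutamate-cysteine ligase (Gclc with its modifier Gclm) and glutathione synthetase (Gss), is spent by peroxidases and transferases, and is restored to its reduced form by glutathione reductase (Gsr). Peroxiredoxins reduce peroxides with electrons from thioredoxin, and superoxide dismutases convert superoxide to hydrogen peroxide, which catalase and both peroxidase families remove. Many of these genes are targets of NRF2, the transcription factor encoded by Nfe2l2, which KEAP1 holds for degradation until oxidants or electrophiles modify it. In the kidney the proximal tubule is the main site of glutathione turnover, with γ-glutamyltransferase (Ggt1) on its brush border.

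Markers of the proximal tubule and collecting duct were present in every library, as the kidney label has it. The inner medulla was less well represented by its list. Slc14a2 reached no more than 0.14 FPKM in any library and was not tested. Slc5a3 and Slc6a12 reached no more than 2.58 and 2.77 FPKM. Akr1b1, at 11.9 to 38.2 FPKM, and Aqp6, at 125 to 295 FPKM, lay higher. All 18 proximal tubule markers were tested, and their summed level lay at 4208 to 8771 FPKM in treated SHR, 9625 to 10875 FPKM in untreated SHR and 7927 to 10119 FPKM in WKY. None of the 9 collecting duct markers was at 0 in all libraries. Their summed level was 2069 to 3833 FPKM in treated SHR, 1379 to 1722 FPKM in untreated SHR and 684 to 1284 FPKM in WKY, with no overlap between groups. By limma with Benjamini-Hochberg adjustment, all 9 passed as higher in treated SHR than in WKY, where 22.9% of all genes passed. In untreated SHR against WKY, 2 of 9 passed as higher, beside 2.96% of all genes, and 8 of 9 had the higher mean in SHR. Of the 18 proximal tubule markers, 3 passed as lower in treated SHR against WKY and 0 passed in untreated SHR against WKY. The difference between the mean log2 levels of the proximal and collecting duct lists, called the segment score here, was -1.63 to -0.07 in treated SHR, 0.249 to 1.24 in untreated SHR and 1.58 to 1.98 in WKY. Leukocyte markers summed to 237 to 725 FPKM in treated SHR, 433 to 972 FPKM in untreated SHR and 277 to 534 FPKM in WKY. Blood cell markers summed to 2885 to 4508 FPKM in treated SHR, 3607 to 5750 FPKM in untreated SHR and 2619 to 5932 FPKM in WKY. The part of these markers in the results was not tested other than by fits with the segment score. Read totals are unknown, since the table holds FPKM without counts, and the FPKM of a library summed to 563643 to 589838.

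Untreated SHR differed from WKY in 5 of the 53 tested redox genes. The peroxidase gene Gpx7 and the sulfiredoxin gene Srxn1 rose, the transferase genes Gstm1, Gsto1 and Gsto2 fell, and 48 did not pass an adjusted p of 0.05. Over all genes tested, 2.96% passed in this comparison. Leaving out 1 library at a time gave 1 to 7 redox genes, with 1 (Gstm1) without WKY library 1 or 3 or SHR library 1 or 3. The share over all genes moved as well, from 1.27% without WKY library 3 to 4.77% without treated library 1. The SHR and WKY libraries did not overlap for 15 redox genes, 8 of them higher and 7 lower in SHR, against 28.4% of all genes. The median log2 change was 0.02 over the redox genes and 0.07 over all genes. In these whole-kidney libraries, fewer cells of a type and less RNA per cell cannot be told apart.

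Treated and untreated SHR differed in none of the 53 redox genes by limma with Benjamini-Hochberg adjustment, and the share over all genes was 0%. Without treated library 1, and in no other leave-one-out fit, redox genes passed, 13 in all, which are described further on. At an unadjusted p under 0.05 there were 9 redox genes (Gpx1, Gstm2, Nfe2l2 and Srxn1 with the higher mean in treated SHR and Gsta2, Gstt1, Gstt2, Sod1 and Sod3 with the lower) and 1997 of all genes, or 15.2%. Treated and untreated SHR libraries did not overlap for 7 redox genes, against 19.0% of all genes. Srxn1, Gpx1, Gstm2 and Prdx2 lay higher in every treated library, and Sod3, Gstt1 and Gstt2 lay lower. The median log2 change was -0.08 over the redox genes and 0.04 over all genes.

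Treated SHR differed from WKY in 12 of the 53, with 22.9% of all genes passing. Leaving out 1 library at a time gave 5 to 25 redox genes, the fewest without WKY library 1 and the most without treated library 1. In those 2 fits 6.14% and 36.5% of all genes passed, and over the 9 fits the share ran from 4.52% to 36.5%. Srxn1, Nfe2l2, Gpx7, Hmox1, Gpx1 and Prdx2 rose, and Gstm1, Sod3, Gstt2, Gsto1, Gsto2 and Gpx3 fell. The groups did not overlap for 17 redox genes, 9 higher and 8 lower, against 38.6% of all genes. This comparison shares its libraries with both others, so the changes are given side by side below. The split of 6 higher and 6 lower was 8 and 5 after quantile normalization and 4 and 6 after median-of-ratios scaling, with the median log2 change of all genes at 0.01 and -0.01 under these scalings and 0.11 without them.

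**Figure D1:**
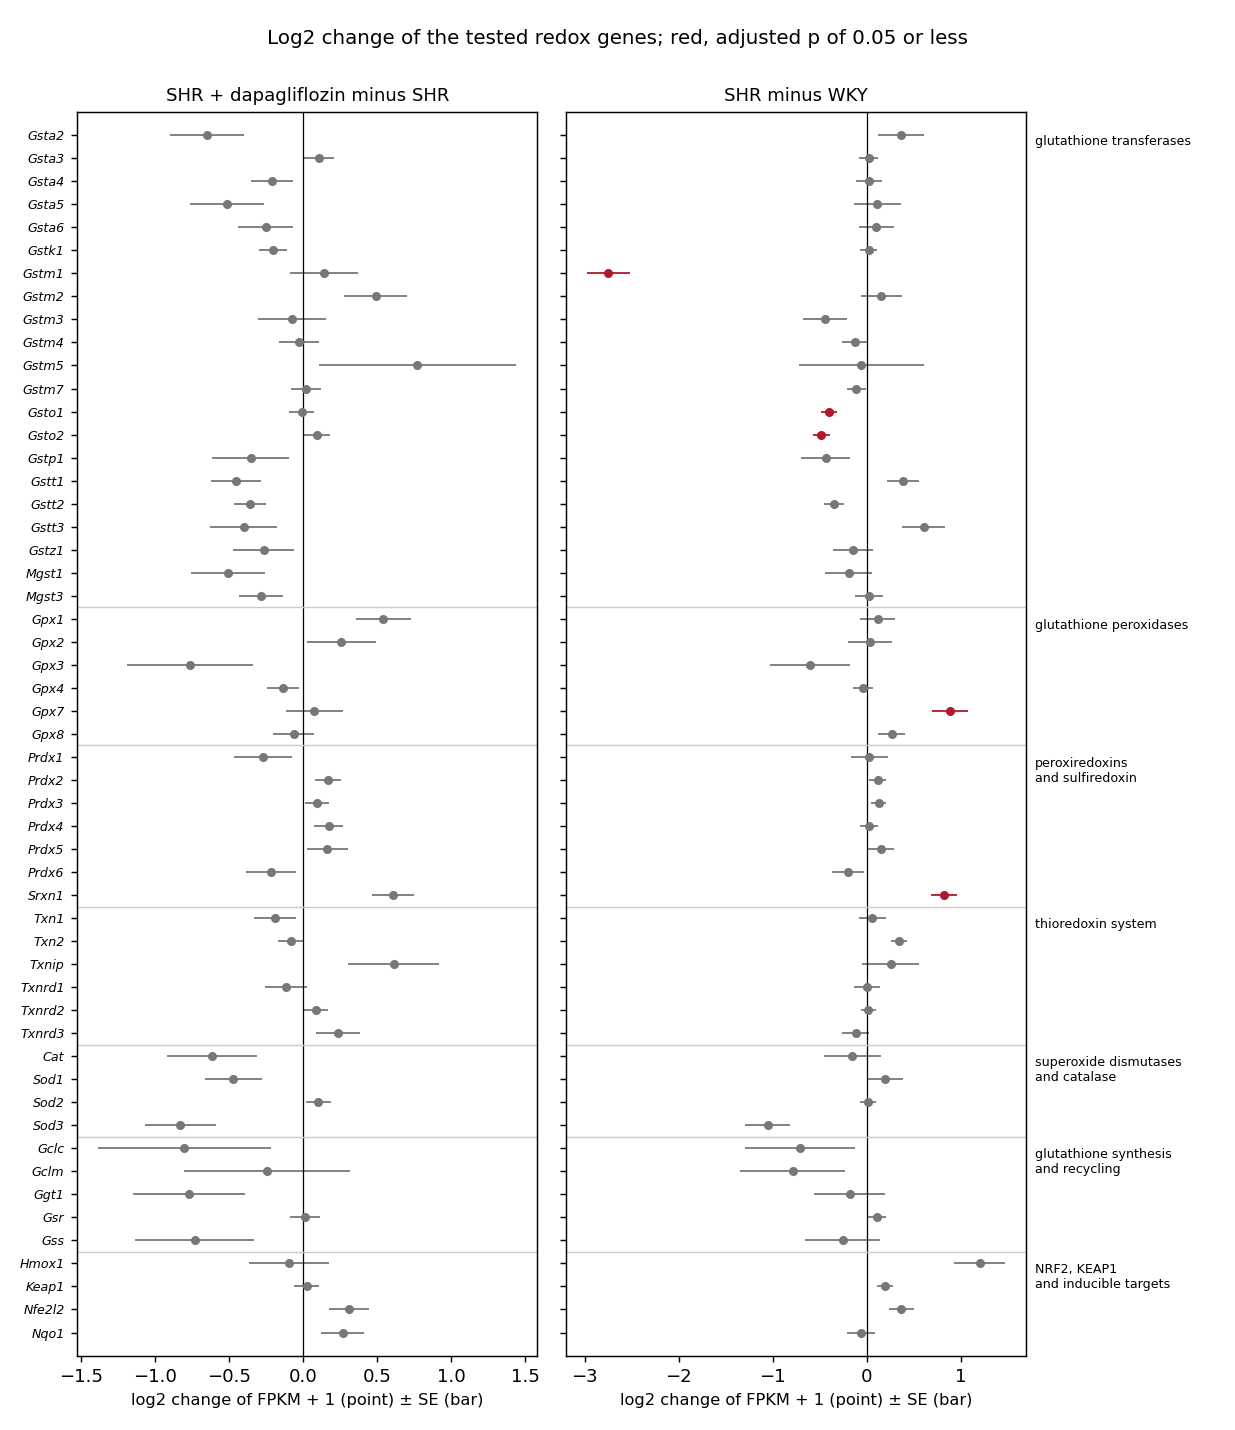
Log2 change of FPKM + 1 for the 53 tested redox genes, in treated SHR minus untreated SHR (left) and untreated SHR minus WKY (right), grouped by role; points are estimates, bars are ± 1 standard error, and red marks an adjusted p of 0.05 or less. No gene is red on the left and 5 are red on the right, where Gstm1 lies farthest from 0 at -2.75.

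The glutathione transferases, which join glutathione to electrophilic compounds, included the gene with the greatest difference between strains. Gstm1 (gene ID 24423), a cytosolic mu-class transferase that has been studied as a candidate gene in stroke-prone hypertensive rats, stood at 34.2, 33.4 and 49.2 FPKM in treated SHR, 35.1, 38.9 and 30.5 FPKM in untreated SHR and 177, 332 and 232 FPKM in WKY. Every SHR library, treated or not, lay below every WKY library. The means were 38.9 ± 8.87 FPKM in treated SHR, 34.8 ± 4.21 FPKM in untreated SHR and 247 ± 78.5 FPKM in WKY (SD, n = 3 each). Untreated SHR thus held 0.141 of the WKY level, a log2 change of -2.75 with a standard error of 0.23 and an adjusted p of 0.000337 by limma. For treated SHR against WKY the log2 change was -2.61 with an adjusted p of 0.000502, and for treated against untreated SHR it was 0.14 with an adjusted p of 0.789. The strain difference was called in each of the 9 fits that left out 1 library and in each of the 10 other settings tried, with log2 changes between -3.01 and -2.51.

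Mu-class genes lie beside each other in the order of the rat reference assembly GRCr8, where Gstm2 precedes Gstm1 and Gstm4 follows it. Neither neighbour passed between untreated SHR and WKY. Gstm2 stood at 172, 201 and 287 FPKM in treated SHR, 138, 165 and 156 FPKM in untreated SHR and 114, 179.7 and 125 FPKM in WKY, and its treated libraries all lay above the untreated SHR libraries (log2 change 0.49, adjusted p of 0.324). Its SHR and WKY libraries overlapped, with a log2 change of 0.16 and an adjusted p of 0.704. Gstm4 ranged from 12.8 to 14.97 FPKM in treated SHR, 13.1 to 14.4 FPKM in untreated SHR and 11.97 to 17.7 FPKM in WKY (SHR against WKY, log2 change -0.13, adjusted p of 0.603). Untreated SHR minus WKY was -0.11 on the log2 scale for Gstm7 (adjusted p of 0.556) and -0.44 for Gstm3 (gene ID 108348148, adjusted p of 0.322). Gstm5 was listed at 0 in 3 of the 9 libraries and at no more than 4.23 FPKM in the others. The mu, alpha and theta families hold similar copies, and reads exchanged between copies could move any of these values, since the rule by which the authors assigned such reads is not given in the sources used here.

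The omega-class pair Gsto1 and Gsto2, adjacent in the same gene order, was lower in SHR with or without the drug. Gsto1 (gene ID 114846), which carries a cysteine in its active site and acts as a thioltransferase, stood at 239, 231 and 219 FPKM in treated SHR, 237, 247 and 209 FPKM in untreated SHR and 304, 299 and 311 FPKM in WKY. The log2 change of untreated SHR against WKY was -0.40 (SE 0.08, adjusted p of 0.042), and that of treated SHR against WKY -0.41 (adjusted p of 0.0156). Gsto2 (gene ID 309465), which reduces dehydroascorbate, stood at 4.63, 4.54 and 4.85 FPKM in treated SHR, 4.64, 4.08 and 4.25 FPKM in untreated SHR and 6.98, 5.84 and 6.56 FPKM in WKY. Its log2 change was -0.49 in untreated SHR against WKY (SE 0.09, adjusted p of 0.0265) and -0.39 in treated SHR against WKY (adjusted p of 0.0211). All SHR libraries lay below all WKY libraries for both genes, and treated and untreated SHR overlapped. Both calls were close to the threshold. When 1 library was left out at a time, the untreated SHR against WKY call held in 2 of 9 fits for Gsto1 (adjusted p from 0.0362 to 0.173), failing without any 1 WKY or SHR library or treated library 2. For Gsto2 it held in 3 of 9 fits (adjusted p from 0.0292 to 0.119), failing without WKY library 1 or 3, any 1 SHR library or treated library 2.

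Theta-class genes each had their own pattern over the groups. Gstt2 (gene ID 29487) stood at 53.5, 49.01 and 40.4 FPKM in treated SHR, 58.3, 58.8 and 65.6 FPKM in untreated SHR and 83.2, 77.3 and 73.5 FPKM in WKY, so that the 3 groups did not overlap, with treated SHR lowest and WKY highest. Of its changes only treated SHR against WKY passed, with a log2 change of -0.71 (SE 0.11, adjusted p of 0.00631). Untreated SHR against WKY gave -0.35 (adjusted p of 0.136) and treated against untreated SHR -0.36 (unadjusted p of 0.00976, adjusted p of 0.281). Gstt1 stood at 85.7, 96.1 and 57.3 FPKM in treated SHR, 106, 116 and 98.7 FPKM in untreated SHR and 77.7, 81.3 and 86.5 FPKM in WKY. Untreated SHR lay above the other groups in every library, yet neither difference passed (treated against untreated SHR, log2 change -0.45, adjusted p of 0.295). For Gstt3 the values were 702, 677 and 359.8 FPKM in treated SHR, 694, 779.5 and 724 FPKM in untreated SHR and 492, 469 and 483 FPKM in WKY, and the log2 change of untreated SHR against WKY was 0.60 (adjusted p of 0.2).

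**Figure D2:**
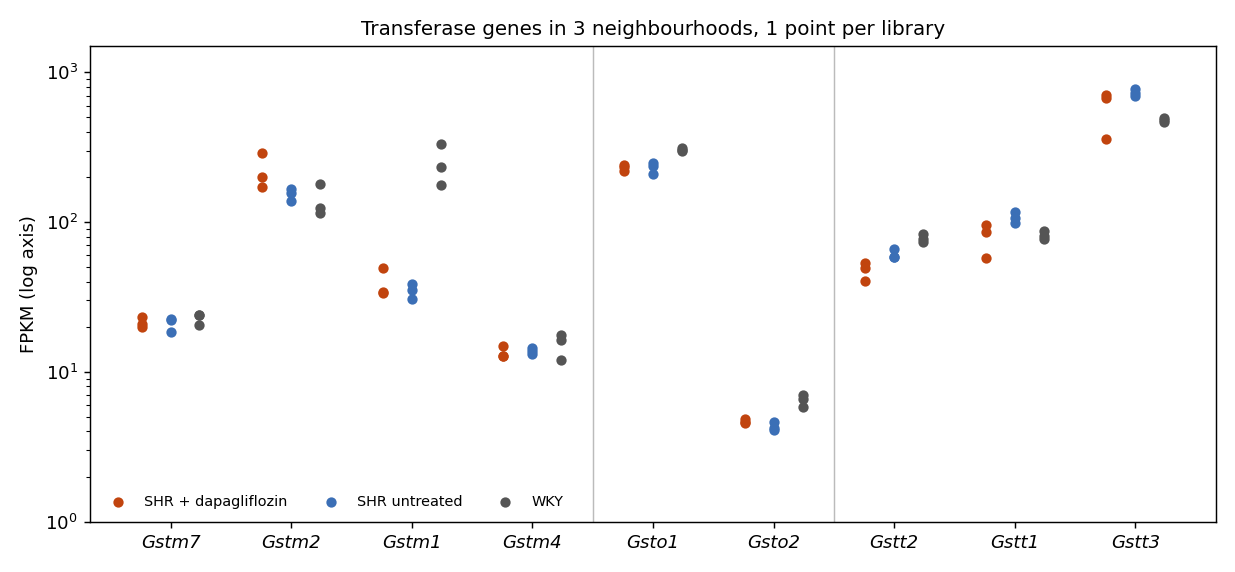
FPKM on a log axis for mu, omega and theta transferase genes that are near neighbours in the genome, 1 point per library, with treated SHR (red) left of untreated SHR (blue) and WKY (grey). Gstm1 in WKY lies between 177 and 332 FPKM, apart from all SHR libraries, whereas Gstm2 and Gstm4 overlap between strains.

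Alpha-class transferases did not pass in any comparison. Gsta5, the most abundant transferase gene, stood at 1723, 1272 and 791 FPKM in treated SHR, 1555, 1788 and 1802 FPKM in untreated SHR and 1764, 1484 and 1514 FPKM in WKY. Gsta2 stood at 829, 685 and 419 FPKM in treated SHR, 1137, 1044 and 771 FPKM in untreated SHR and 681, 802 and 786 FPKM in WKY. For both genes treated library 3 was the lowest of the 9 libraries, and treated library 1 lay within the range of untreated SHR. The log2 change of treated against untreated SHR was -0.51 for Gsta5 (adjusted p of 0.36) and -0.65 for Gsta2 (adjusted p of 0.295). Gstp1, the pi-class enzyme, stood at 550.4, 294 and 272 FPKM in treated SHR, 462, 514 and 384 FPKM in untreated SHR and 582, 531 and 732 FPKM in WKY. Untreated SHR lay below WKY in every library, with a log2 change of -0.44 (adjusted p of 0.381). Of 21 tested transferase genes, 3 fell in untreated SHR against WKY, 4 fell in treated SHR against WKY, and none rose in either. These are 3 and 4 of 21 beside 2.96% and 22.9% of all genes, higher or lower, in the same comparisons.

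Among the 6 tested genes with glutathione peroxidase symbols, Gpx7 rose in SHR. Gpx7 (gene ID 298376), an enzyme of the endoplasmic reticulum, stood at 4.0, 5.77 and 5.36 FPKM in treated SHR, 4.01, 4.81 and 5.32 FPKM in untreated SHR and 1.34, 2.48 and 2.6 FPKM in WKY. Each SHR library lay above each WKY library, and treated and untreated SHR overlapped. The log2 change was 0.88 for untreated SHR against WKY (SE 0.19, adjusted p of 0.0473) and 0.96 for treated SHR against WKY (SE 0.19, adjusted p of 0.0142). The first of these calls held in 1 of 9 leave-one-out fits, the one without treated library 1, with adjusted p from 0.0324 to 0.169, and in 5 of 10 other settings. The second held in 8 of 9, failing without treated library 3 (adjusted p of 0.0507).

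Gpx1 (gene ID 24404), the cytosolic selenoenzyme, rose in treated SHR against WKY. It stood at 717, 1079 and 1030.3 FPKM in treated SHR, 641, 609 and 657 FPKM in untreated SHR and 541, 736 and 505 FPKM in WKY. All treated libraries lay above the untreated SHR libraries, but treated library 1 lay below WKY library 2. The log2 change was 0.54 in treated against untreated SHR (unadjusted p of 0.0179, adjusted p of 0.285), which did not pass, and 0.66 in treated SHR against WKY (adjusted p of 0.0371), which did. That call held in 6 of 10 other settings and was lost with median-of-ratios scaling. It held in 2 of 9 leave-one-out fits, those without WKY library 2 or treated library 1 (adjusted p from 0.00632 to 0.126).

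Gpx3 (gene ID 64317), the secreted plasma peroxidase that the proximal tubule makes, was the most abundant of the redox genes. It stood at 2169, 6897 and 2787 FPKM in treated SHR, 7205, 6051 and 4639 FPKM in untreated SHR and 6978, 12391 and 8197 FPKM in WKY. By level it ranked 16, 1 and 9 among all genes of the treated libraries, 2, 3 and 4 of the untreated SHR libraries and 2, 1 and 2 of the WKY libraries. Treated SHR lay below WKY in every library, by a narrow margin for treated library 2, with a log2 change of -1.36 (SE 0.43, adjusted p of 0.0493). The call held in 1 of 9 leave-one-out fits, the one without treated library 2 (adjusted p from 0.0201 to 0.154). It held in 6 of 10 other settings and was lost after quantile normalization. The log2 change was 0.03 (SE 0.978) once the segment score was a covariate. Untreated SHR against WKY gave -0.60 (adjusted p of 0.452). Gpx4, which reduces lipid peroxides in membranes, stood at 527, 490.4 and 422 FPKM in treated SHR, 523, 571 and 480.2 FPKM in untreated SHR and 534, 538 and 539.6 FPKM in WKY, with no change past the test (smallest adjusted p of 0.269, treated SHR against WKY).

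Srxn1 (gene ID 296271) encodes sulfiredoxin, which restores peroxiredoxins that have been overoxidized, and of the redox genes it rose the most in treated SHR against WKY. It stood at 19.3, 22.8 and 26.8 FPKM in treated SHR, 14.8, 12.7 and 16.3 FPKM in untreated SHR and 6.98, 8.87 and 7.68 FPKM in WKY. The 3 groups did not overlap, with treated SHR highest and WKY lowest. Means were 22.9 ± 3.76 FPKM in treated SHR, 14.6 ± 1.81 FPKM in untreated SHR and 7.84 ± 0.96 FPKM in WKY (SD, n = 3 each). The log2 change was 0.82 in untreated SHR against WKY (SE 0.14, adjusted p of 0.017) and 1.43 in treated SHR against WKY (SE 0.14, adjusted p of 0.000813). Treated against untreated SHR gave 0.61 (SE 0.14), the smallest unadjusted p of the redox genes in that comparison (0.0019), and did not pass after adjustment over all genes (adjusted p of 0.281). The untreated SHR call held in 5 of 9 leave-one-out fits and was lost without WKY library 1 or 3 or SHR library 1 or 3, with adjusted p from 0.00892 to 0.0788. The treated SHR against WKY call held in 9 of 9.

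The 6 peroxiredoxins, several of which are substrates of sulfiredoxin, did not pass between untreated SHR and WKY. Prdx2, a cytosolic form, stood at 289.9, 295 and 332 FPKM in treated SHR, 263, 281 and 268 FPKM in untreated SHR and 231, 269 and 251 FPKM in WKY. It lay higher in every treated library than in any other, and passed only against WKY, with a log2 change of 0.29 (adjusted p of 0.0485). That call held in 4 of 10 other settings and was lost with median-of-ratios scaling (adjusted p of 0.209). It held in 2 of 9 leave-one-out fits, those without WKY library 2 or treated library 1 (adjusted p from 0.0334 to 0.148). Prdx1, Prdx3, Prdx4, Prdx5 and Prdx6 did not pass in any comparison. The peroxiredoxin of the mitochondrion, Prdx3, had the smallest adjusted p of these 5, at 0.0705 with a log2 change of 0.22 in treated SHR against WKY.

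For NRF2, the data hold the transcript of its gene Nfe2l2 (gene ID 83619) and not the protein. The transcript stood at 73.8, 97.7 and 107 FPKM in treated SHR, 68.3, 71.8 and 81.8 FPKM in untreated SHR and 54.9, 57.8 and 58.5 FPKM in WKY. All SHR libraries lay above all WKY libraries, and treated and untreated SHR overlapped through treated library 1. Only treated SHR against WKY passed, with a log2 change of 0.68 (SE 0.13, adjusted p of 0.0136), and failed narrowly without WKY library 1 or 3 (adjusted p of 0.0511 and 0.0534). Untreated SHR against WKY gave 0.37 (adjusted p of 0.189) and treated against untreated SHR 0.31 (adjusted p of 0.322). Keap1, its repressor, stood at 19.7, 19.9 and 22.98 FPKM in treated SHR, 19.7, 19.7 and 21.9 FPKM in untreated SHR and 17.4, 18.7 and 17.1 FPKM in WKY, with adjusted p of 0.899 for treated against untreated SHR and 0.252 for untreated SHR against WKY.

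Hmox1 (gene ID 24451), heme oxygenase 1, and Nqo1, a quinone reductase, are commonly read as markers of NRF2 activity, and only Hmox1 passed here. It stood at 10.9, 6.22 and 7.8 FPKM in treated SHR, 10.4, 9.82 and 6.44 FPKM in untreated SHR and 2.03, 3.43 and 4.61 FPKM in WKY. All SHR libraries lay above all WKY libraries, with a log2 change of 1.11 in treated SHR against WKY (SE 0.27, adjusted p of 0.0238) and 1.20 in untreated SHR against WKY (SE 0.27, adjusted p of 0.054), which fell short of the threshold. The call for treated SHR failed without WKY library 1 or treated library 3 (adjusted p of 0.0748 and 0.0689). Nqo1 stood at 5.72, 7.79 and 7.03 FPKM in treated SHR, 6.26, 5.43 and 4.81 FPKM in untreated SHR and 4.99, 5.57 and 6.84 FPKM in WKY. Its groups overlapped in every comparison, with log2 changes of 0.27 in treated against untreated SHR (adjusted p of 0.383) and -0.06 in untreated SHR against WKY (adjusted p of 0.833).

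**Figure D3:**
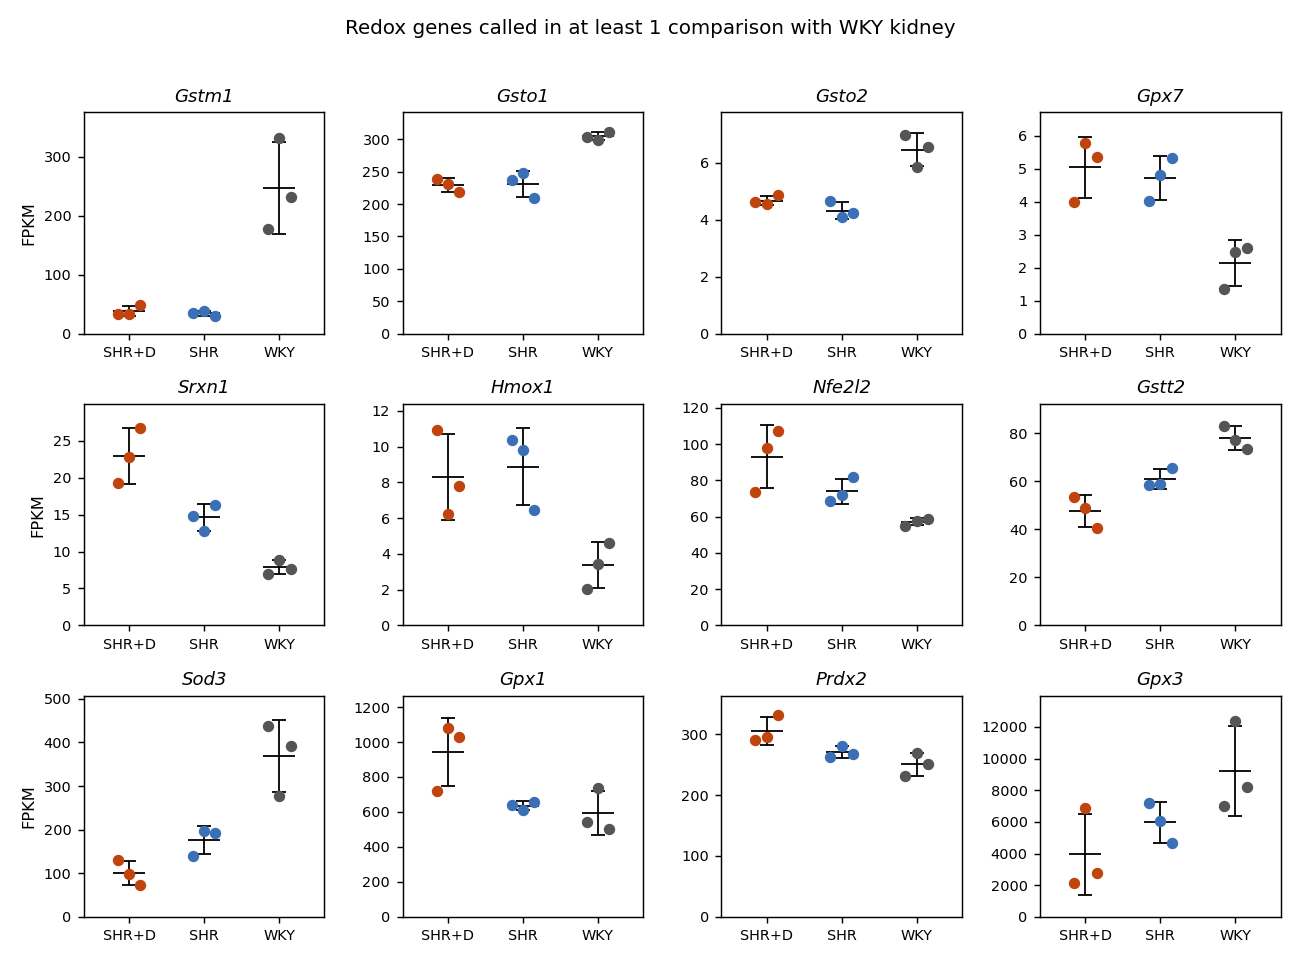
FPKM of the 12 redox genes that passed in treated or untreated SHR against WKY; points are libraries, and black bars are the mean ± SD of 3, with treated SHR (SHR+D) left of untreated SHR and WKY. Srxn1 lies at 19.3 to 26.8 FPKM in treated SHR, 12.7 to 16.3 FPKM in untreated SHR and 6.98 to 8.87 FPKM in WKY.

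The window before the gene start was read for 47 of the redox genes from RefSeq (build GRCr8), to show which carry the letters of the site that NRF2 binds. Not among them were Gpx8, Gsr, Gstm3, Gstm6l, Gstt1, Gstt2, Hmox1, Mgst2, Prdx6, Sod3 and Txnip. Its core was searched as TGACNNNGC, and the related AP-1 site as TGANTCA, both on either strand. The string TGACTCAGC matches both. Within 250 bases before the start the core was found in 10 of the 47 genes (21.3%) and in 3027 of 27457 genes of the table (11%), and the AP-1 string in 5 (10.6%) and in 1918 genes (6.99%). Genes with the core were Gclm, Gpx2, Gsta3, Gstm5, Gstm7, Gstp1, Gstz1, Prdx1, Sod2 and Txnrd1. None of these 10 passed in any comparison with all libraries, where 2.96%, 0% and 22.9% of all genes passed in untreated SHR against WKY, treated against untreated SHR and treated SHR against WKY. Without treated library 1, Gclm, Gstp1, Prdx1 and Txnrd1 passed in treated SHR against WKY, beside 36.5% of all genes, and Prdx1 and Txnrd1 in treated against untreated SHR, beside 6.32%. Of the genes that did pass and had a window, Srxn1 held an AP-1 string and no core within the 250 bases. The whole windows were 300 bases long and took in 50 bases after the start. In them the core was found in 14 of the 47 genes (29.8%) and in 13.1% of the genes of the table. Gsta2, Nfe2l2, Prdx4 and Prdx5 held it only when those bases were included. Of these, Nfe2l2 passed in treated SHR against WKY. A match is a description of these letters, and the absence of one speaks of the window searched alone. Shown 5′ to 3′ on the gene's strand are the 250 bases before the start of Srxn1 (chr3:161064562-161064811, plus strand) and Gstm1 (chr2:198343384-198343633, minus strand), the redox genes with the largest rise and fall in treated SHR against WKY, and of Gclm (chr2:213031885-213032134, plus strand) and Gstp1 (chr1:210769706-210769955, minus strand), which hold the core and did not pass with all libraries. Capitals mark the core or AP-1 string. It begins at base -62 in Srxn1, -172 in Gclm (on the opposite strand) and -61 in Gstp1, counted with -1 as the base before the start, and the Gstm1 stretch has none.
Srxn1: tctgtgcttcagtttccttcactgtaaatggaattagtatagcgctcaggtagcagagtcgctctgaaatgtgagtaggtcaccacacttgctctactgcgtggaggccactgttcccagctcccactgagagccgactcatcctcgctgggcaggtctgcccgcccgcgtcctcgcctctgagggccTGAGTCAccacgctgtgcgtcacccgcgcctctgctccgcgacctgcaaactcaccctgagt
Gstm1: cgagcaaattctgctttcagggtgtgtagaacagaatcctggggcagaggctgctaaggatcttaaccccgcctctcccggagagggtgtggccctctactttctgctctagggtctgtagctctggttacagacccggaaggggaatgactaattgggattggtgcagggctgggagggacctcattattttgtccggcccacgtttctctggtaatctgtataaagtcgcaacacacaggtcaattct
Gclm: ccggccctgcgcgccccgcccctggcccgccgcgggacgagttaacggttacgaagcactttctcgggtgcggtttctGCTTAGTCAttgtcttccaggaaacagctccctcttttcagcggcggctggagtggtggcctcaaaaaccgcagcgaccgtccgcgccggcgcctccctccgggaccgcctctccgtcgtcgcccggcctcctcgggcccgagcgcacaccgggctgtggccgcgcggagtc
Gstp1: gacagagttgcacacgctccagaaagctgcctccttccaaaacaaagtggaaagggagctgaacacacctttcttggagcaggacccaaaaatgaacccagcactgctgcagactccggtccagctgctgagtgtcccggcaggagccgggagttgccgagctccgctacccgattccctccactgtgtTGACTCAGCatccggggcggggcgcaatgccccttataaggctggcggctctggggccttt

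Of the superoxide dismutases, the extracellular form fell in treated SHR. Sod3 (gene ID 25352), which is secreted and binds to vessel walls and matrix, stood at 129.5, 98.5 and 73.1 FPKM in treated SHR, 139, 197 and 192 FPKM in untreated SHR and 438, 278 and 391 FPKM in WKY. The 3 groups did not overlap, with treated SHR lowest and WKY highest. Treated SHR against WKY gave a log2 change of -1.88 (SE 0.24, adjusted p of 0.00314), called in 9 of 9 leave-one-out fits. Untreated SHR against WKY, at -1.05 (SE 0.24, adjusted p of 0.0577), fell just short of being called, and passed without WKY library 2, treated library 1 or treated library 3 (adjusted p from 0.0299 to 0.0398). The difference of treated against untreated SHR, at -0.83 (SE 0.24, unadjusted p of 0.00786, adjusted p of 0.281), did not pass.

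The intracellular dismutases and catalase did not pass. Sod1, the cytosolic copper-zinc enzyme, stood at 1234, 965 and 731 FPKM in treated SHR, 1408, 1456 and 1128 FPKM in untreated SHR and 1105, 1119.7 and 1239 FPKM in WKY, with an adjusted p of 0.313 for treated against untreated SHR. The mitochondrial enzyme Sod2 stood at 114, 125 and 115 FPKM in treated SHR, 117, 109 and 102 FPKM in untreated SHR and 103, 118 and 105 FPKM in WKY. Cat, the catalase of peroxisomes, stood at 684, 371 and 264 FPKM in treated SHR, 573, 617 and 678 FPKM in untreated SHR and 829, 574 and 692 FPKM in WKY. For Cat, treated libraries 2 and 3 lay below all others and treated library 1 lay among them. Its log2 change was -0.61 in treated against untreated SHR (SE 0.30, adjusted p of 0.361) and -0.76 in treated SHR against WKY (adjusted p of 0.0954).

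None of the 5 genes of glutathione synthesis and recycling passed in any comparison, and the spread between libraries of 1 group was wide for 4 of them. Gclc (gene ID 25283), the catalytic subunit of the enzyme that limits glutathione synthesis, stood at 2881, 499 and 712 FPKM in treated SHR, 1385, 2032 and 1919 FPKM in untreated SHR and 3690.0, 1877 and 3439 FPKM in WKY. Treated library 1 lay among the WKY libraries and treated libraries 2 and 3 lay below all others. Its log2 change was -0.80 in treated against untreated SHR (SE 0.58, adjusted p of 0.516) and -0.71 in untreated SHR against WKY (SE 0.58, adjusted p of 0.516). The modifier subunit gene Gclm stood at 860.2, 199 and 243 FPKM in treated SHR, 335, 383 and 539.9 FPKM in untreated SHR and 1107, 390.4 and 829.8 FPKM in WKY. As for Gclc, treated library 1 was high and treated libraries 2 and 3 were the lowest of all. Glutathione synthetase, Gss, stood at 336, 100.1 and 119 FPKM in treated SHR, 229, 312 and 259 FPKM in untreated SHR and 352, 249 and 361 FPKM in WKY. Ggt1, which breaks down extracellular glutathione, stood at 1209, 411 and 439.6 FPKM in treated SHR, 916, 1196 and 990.5 FPKM in untreated SHR and 1377, 909.9 and 1262 FPKM in WKY. In all 4 genes treated library 1 was the highest of its group and treated library 2 the lowest. Gsr, the reductase, kept a narrow range of 149, 138 and 116 FPKM in treated SHR, 136, 137 and 126 FPKM in untreated SHR and 116, 131 and 123 FPKM in WKY.

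The library lowest for Gclc in its group, which was treated library 2, SHR library 1 and WKY library 2, was also the lowest for Gclm, Gss and Ggt1 in all 3 groups. The same libraries were the highest of their groups for Gpx3, Gsta6, Mgst3 and Sod2. In each direction these were 4 of the 53 tested redox genes, with Gclc itself counted. The share over all genes was not computed, so these counts cannot be told from chance. This order was noticed after the values were seen and is given without a test. The mean log2 level of the 18 proximal tubule markers was also highest of its group in these libraries, at 7.11 in treated library 2, 7.49 in SHR library 1 and 7.59 in WKY library 2. The mean of 10 markers of the late proximal tubule was lowest of its group in treated library 2 (4.43) and WKY library 2 (5.41) and was 5.48 in SHR library 1, where SHR library 3 had 5.46. The order was not particular to tubule lists. Endothelial markers were also highest of their groups in these libraries (4.73 in treated library 2, 4.76 in SHR library 1 and 4.45 in WKY library 2). So were fibroblast markers (2.53, 3.05 and 2.55). The part of any of these cell types in the order was not tested.

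**Figure D4:**
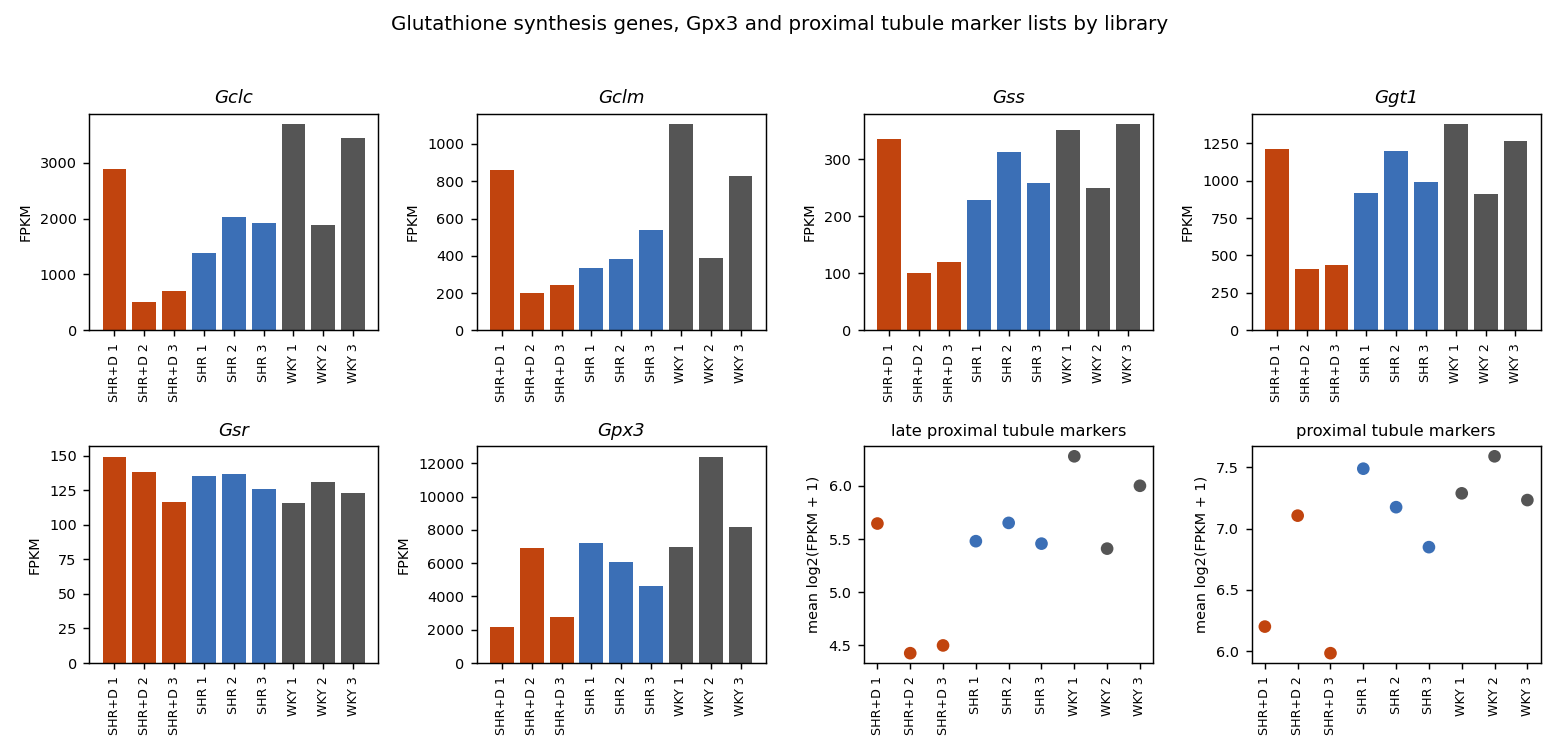
FPKM of Gclc, Gclm, Gss, Ggt1, Gsr and Gpx3 in each library (bars, 1 per library) and the mean log2(FPKM + 1) of late proximal and proximal tubule marker lists (points), with treated SHR (SHR+D) left, then untreated SHR, then WKY. Gclc has its group's lowest value in treated library 2, SHR library 1 and WKY library 2, and Gpx3 has its group's highest value in the same libraries.

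The thioredoxin genes did not pass in any comparison. Txnip, which binds and inhibits thioredoxin and responds to glucose, stood at 199, 517 and 395 FPKM in treated SHR, 210.0, 219 and 246 FPKM in untreated SHR and 197, 225 and 151 FPKM in WKY. Treated libraries 2 and 3 lay above all others while treated library 1 lay among WKY and below untreated SHR, with a log2 change of 0.61 in treated against untreated SHR (SE 0.31, adjusted p of 0.364). The mitochondrial thioredoxin Txn2 lay higher in every SHR library than in WKY, at a log2 change of 0.34 in untreated SHR against WKY (adjusted p of 0.0808). Txn1, Txnrd1, Txnrd2 and Txnrd3 had adjusted p of at least 0.344 in all 3 comparisons.

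Treated library 1 stood apart from treated libraries 2 and 3 in many of these genes. Without it, 13 of the 53 redox genes passed in treated against untreated SHR, where 6.32% of all genes passed. Gpx1, Nfe2l2, Srxn1 and Txnip were then higher in treated SHR, with log2 changes of 0.73, 0.47, 0.72 and 1.01. The 9 lower genes were Cat, Gclc, Ggt1, Gss, Gstt2, Mgst1, Prdx1, Sod3 and Txnrd1, from -0.30 for Txnrd1 to -1.56 for Gclc. The adjusted p of these 13 lay between 0.0219 and 0.0488. Against WKY, 25 redox genes passed in treated SHR without this library, 9 higher and 16 lower, where 36.5% of all genes passed. No reason to leave the library out is given in the labels, and treated SHR has 2 libraries in these fits.

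With the segment score as a covariate, Gstm1 alone passed in untreated SHR against WKY (log2 change -3.01, SE 0.285, adjusted p of 0.00291), where 0.792% of all genes passed. No redox gene passed in treated SHR against WKY, and 0.122% of all genes did. Gstm1 then had a log2 change of -3.30 with an adjusted p of 0.152. The score does not overlap between the 3 groups, so tubule makeup and group cannot be told apart in these fits.

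The 58 genes together took 3.46%, 3.37% and 2.36% of all FPKM in treated SHR, 3.87%, 3.93% and 3.56% in untreated SHR and 4.52%, 4.74% and 4.52% in WKY. The groups did not overlap in this share. Without Gpx3 the shares were 3.08%, 2.17% and 1.87% in treated SHR, 2.63%, 2.90% and 2.74% in untreated SHR and 3.28%, 2.64% and 3.11% in WKY, and the groups overlapped. The 5 genes not tested were Gpx5, Gstm3l, Gstm6, Gstm6l and Mgst2, each at 0.74 FPKM or less in every library.

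Other genes that feed or use glutathione were followed through lists that hold none of the 58. The counts stand beside shares over all genes of 2.96% in untreated SHR against WKY, 0% in treated against untreated SHR and 22.9% in treated SHR against WKY. In treated against untreated SHR no list had a member past the test. Of 17 tested genes of glutathione supply and turnover, none passed in untreated SHR against WKY, while 3 rose and 4 fell in treated SHR against WKY. Those that rose were Ggt5, Ggt6 and Gnmt. The falls were in Shmt1, a serine hydroxymethyltransferase that makes glycine (31.7 ± 9.87 FPKM in treated SHR, 42.3 ± 3.52 FPKM in untreated SHR and 73.9 ± 9.32 FPKM in WKY, log2 change -1.23 against WKY, adjusted p of 0.00708), in Oplah, which recycles 5-oxoproline (67.5 ± 24.4 FPKM in treated SHR against 151 ± 33.5 FPKM in WKY), in Cbs, which makes cystathionine for cysteine synthesis, and in Csad. The median log2 change of the list was -0.56 in treated SHR against WKY, beside 0.11 over all genes. In the same comparison it was -0.92 over proximal tubule markers, -1.10 over late proximal tubule markers and 1.61 over collecting duct markers. The part of tubule makeup in the list's median was not tested.

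Of the genes of the mercapturate pathway, which turns glutathione conjugates into excreted products, Abcc1 rose and Abcc2 fell in treated SHR against WKY, and neither passed in untreated SHR against WKY. Of 24 tested further targets of NRF2, Cbr1 passed in untreated SHR against WKY. Cbr1 (gene ID 29224), a carbonyl reductase, stood at 13.3, 17.8 and 24.1 FPKM in treated SHR and 8.94, 9.84 and 10.8 FPKM in untreated SHR and was listed at 0 in all 3 WKY libraries, with adjusted p of 4.52e-06 for treated SHR and 2.41e-05 for untreated SHR against WKY. Treated SHR lay above untreated SHR in every library (log2 change 0.81, adjusted p of 0.281). In treated SHR against WKY, Tkt and Cbr1 rose, while Abcc2, Blvra and Taldo1 fell, and 19 did not pass, so that 5 of 24 passed beside 22.9% of all genes. Copies similar to Cbr1 were not examined. The list's median was 0.00 in untreated SHR and -0.18 in treated SHR against WKY. Slc7a11, the cystine importer that NRF2 induces, stood at 0.61 to 0.82 FPKM in treated SHR, 0.62 to 1.64 FPKM in untreated SHR and 0.49 to 0.63 FPKM in WKY and was not tested. Of 8 tested genes for partners, repressors and relatives of NRF2, Nfe2l1 (a relative) and Rbx1 rose in treated SHR against WKY and the rest did not pass.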

How the data were processed

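Kidney RNA of 9 libraries (3 groups of 3) was sequenced. Per the file headers, the authors deposited FPKM values, with a column for each library. The submitters' processing notes name build Rnor_6.0, Bowtie2 2.2.5 and HISAT2 2.0.4 without their roles. The quantifier is not given in the sources used here, nor is the annotation. Since FPKM is scaled within a library, every value moves when the most abundant transcripts change.

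Genes with at least 1 FPKM in at least 3 libraries (13127 of 19367) were analysed as log2(FPKM + 1), a scale that understates changes of weakly expressed genes. The 3 contrasts came from a group-means model of all 9 libraries (6 residual degrees of freedom) in limma 3.58.1 (R 4.3.3) with an intensity trend and Benjamini-Hochberg adjustment over all genes. Tests were two-sided and called at an adjusted p of 0.05. The fit was tested on simulated data. The redox genes, the other gene lists and the tests were chosen with earlier results of these data known. Genes named with all values were those called in any contrast, the 5 smallest p in each, the 6 most abundant and a set of main enzymes. Alternatives changed the pseudocount, filter, scaling, libraries, variance prior, a tubule covariate and a replicate block. Of 58 gene IDs, 57 matched the GRCr8 reference table, 56 with the same symbol; the gene listed as Gstm3l is named Gstm3 there, and the gene listed as Gstm3 did not match. Within-group library correlations were 0.969 to 0.989 across genes, which are not independent replicates. Python 3.11.15, numpy 2.4.6, pandas 2.3.3 and matplotlib 3.10.9 were used for counts and plots. One result of the mercapturate list is not reported here.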

Additional observations from a re-analysis of the deposited data

How the results depend on the processing

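Of the redox genes, 5 passed in untreated SHR against WKY, 0 in treated against untreated SHR and 12 in treated SHR against WKY. The count for untreated SHR against WKY was 2 without a filter on low values and 1 with the segment covariate. That for treated SHR against WKY was 7 when only the 2 groups compared were fitted and 0 with the covariate. Under pseudocounts of 0.1 and 5, a filter of 5 FPKM, both other scalings and no intensity trend, each count stayed within 1.5 times its first value. Leaving out 1 library gave 1 to 7 redox genes in untreated SHR against WKY, 0 to 13 in treated against untreated SHR and 5 to 25 in treated SHR against WKY. In untreated SHR against WKY the count was 1 without WKY library 1, WKY library 3, SHR library 1 or SHR library 3, and 2 without SHR library 2 or treated library 2. For treated SHR against WKY it was 5 without WKY library 1, 6 without WKY library 3 or treated library 3 and 25 without treated library 1, the library whose absence also gave the 13. The cause of these shifts was not tested.

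The log2 change of Gpx3 in treated SHR against WKY was 0.03 (SE 0.978) with the segment covariate, in place of -1.36. With that standard error its sign was not settled, and the cause was not tested. With the replicate block the counts were 4 in untreated SHR against WKY, 0 in treated against untreated SHR and 12 in treated SHR against WKY. Same-numbered libraries did not all deviate together (r across genes from -0.328 to 0.456). Deviations were taken from means of 3 libraries, so these values cannot settle whether the numbers pair the libraries. For the named genes taken singly over the 3 comparisons, leaving out 1 library ended a call in 59 cases, added one in 19 and did neither in 624, and the segment covariate ended 15 calls beside that of Gpx3. Depth is unknown, and no interval from counting could be given.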

Other observations

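Oxidant sources and further thiol proteins lay outside the comparisons above. Of 13 tested oxidant sources none passed in untreated SHR against WKY or in treated against untreated SHR, where 2.96% and 0% of all genes passed. In treated SHR against WKY 3 of 13 passed, beside 22.9% of all genes. There Nos3, endothelial nitric oxide synthase, rose (3.75 ± 0.70 FPKM in treated SHR against 2.13 ± 0.49 FPKM in WKY, adjusted p of 0.0303 by limma). Nox4, the NADPH oxidase of tubule cells, fell, at 17.9, 23.6 and 9.75 FPKM in treated SHR, 26.5, 23.3 and 21.2 FPKM in untreated SHR and 28.4, 39.9 and 29.5 FPKM in WKY (log2 change -0.96 against WKY, SE 0.27, adjusted p of 0.0372). Hao2, a peroxide-forming hydroxyacid oxidase, also fell (1937 ± 756 FPKM in treated SHR against 3567 ± 437 FPKM in WKY, adjusted p of 0.0409).

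Of 18 other thiol redox proteins none passed in untreated SHR against WKY or in treated against untreated SHR, beside the same shares over all genes. In treated SHR against WKY, Selenow, Nnt and Nxn rose and Msra and Selenop fell, which is 5 of 18 beside 22.9% of all genes. Selenow, a small selenoprotein, stood at 63.5, 83.3 and 103 FPKM in treated SHR, 51.7, 47.6 and 74.95 FPKM in untreated SHR and 35.97, 46.6 and 31.4 FPKM in WKY, with a log2 change of 1.10 against WKY (adjusted p of 0.0151). Msra, a methionine sulfoxide reductase, stood at 67.97, 44.7 and 30.4 FPKM in treated SHR, 54.03, 62.8 and 68.2 FPKM in untreated SHR and 135, 83.8 and 100.1 FPKM in WKY, with a log2 change of -1.18 against WKY (adjusted p of 0.0202).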
